A study of Bos taurus with 16 samples.

Results

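Aminoacyl-tRNA synthetases are the enzymes that join each amino acid to its transfer RNA. The 35 genes described here were chosen by name, 19 for the cytosolic enzymes (names ending in 1, with FARSA and FARSB) and 16 for the mitochondrial enzymes (names ending in 2). Each gene was found once in all 3 deposited tables, which list 38959, 37429 and 28303 genes, and all 35 passed the filter on low values in every table. The choice of genes used no measured value.

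Cells keep separate sets of these enzymes because proteins are made both on cytosolic ribosomes and inside mitochondria, and both sets are encoded in the nucleus. In the cytosol, EPRS1, IARS1, KARS1, LARS1, MARS1, QARS1 and RARS1 belong to a multi-synthetase complex held together by the scaffold proteins AIMP1, AIMP2 and EEF1E1. Many cytosolic synthetase genes are known targets of ATF4, the transcription factor of the amino acid response that cells raise when amino acids run short.

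RNA sequencing covered 16 libraries of wild-type cattle cells, 12 of them single in vitro fertilized blastocysts collected on the eighth day and 4 of bovine embryonic stem cells (bESCs). LY2955303 (LY) is an inhibitor of the retinoic acid receptor RARγ, dissolved in DMSO, and the study asked what it does to gene expression in embryos and bESCs. One blastocyst table holds 3 DMSO libraries and 3 LY10 libraries, from embryos given vehicle or 10 μM LY from the 2-cell stage. A second table holds 2 libraries each of LY_DMSO (vehicle), cell2_LY (LY from the 2-cell stage) and cell16_LY (LY from the 16-cell stage), whose labels give no concentration. The third table holds 2 libraries of bESCs in their maintenance medium TIFX (bESC_tifx) and 2 of bESCs in that medium with LY (bESC_LY), all grown on mouse embryonic fibroblast feeder layers. All embryos came from slaughterhouse oocytes and were cultured with LIF, FGF2 and IGF1, so the vehicle groups carried these factors too. The labels give every library the same batch number, and nothing in them says that replicates came from separate rounds of fertilization, so p-values measure only the spread between these libraries.

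Libraries held from 7905768 to 17343140 reads on genes in the blastocysts and from 29055323 to 31230432 in the bESCs. The trophectoderm keratin KRT8 lay between 1582 and 6493 FPKM in the blastocysts, and the cumulus marker PTX3 did not exceed 0.223 FPKM there. In the bESCs the pluripotency factor POU5F1 lay between 967 and 1117 FPKM. COL1A1, a collagen gene of fibroblasts, lay between 45.8 and 54.7 FPKM in the bESCs and did not exceed 1.76 FPKM in the blastocysts, and the part of feeder cells in the bESC values was not tested. DMSO replicate 3 correlated more closely with the LY10 libraries than with its own group. Across tested genes its Spearman correlation was between 0.903 and 0.927 with the LY10 libraries, and 0.883 and 0.844 with DMSO replicates 1 and 2. The correlation between DMSO replicates 1 and 2 is not given, so these values do not show which DMSO library stood apart. Values without DMSO replicate 3 are given where they differ. A change in bulk RNA cannot separate a changed level per cell from a changed share of cell types.

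Levels per gene length are given as FPKM, reads scaled by the authors to gene length and library size. Cytosolic genes were the more abundant set everywhere. In the DMSO blastocysts the median of the group means was 33.7 FPKM over the 19 cytosolic genes, with a range from 2.0 to 119, and 3.62 FPKM over the 16 mitochondrial genes, with a range from 0.226 to 32.1. Even the least read synthetase gene of any library, CARS2 in DMSO replicate 2, had 22 reads. By FPKM the cysteine, phenylalanine and glutamate enzymes CARS2, FARS2 and EARS2 were the 3 lowest of all 35 in the DMSO and LY_DMSO groups. That order depends on the deposited gene lengths, which were 7438, 59546 and 10120 bases. In reads scaled only to library size, FARS2 had a mean of 143 in DMSO, above AARS2 at 42.2 and VARS1 at 110. IARS2, the isoleucine enzyme, was the highest mitochondrial gene by FPKM in each of the 7 groups.

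KARS1, TARS1 and NARS1 were among the 5 highest of all 35 genes in each of the 7 groups. In DMSO the highest means were FARSB at 119 ± 43.2 FPKM (SD, n = 3), KARS1 at 110 ± 11.5, TARS1 at 105 ± 43.5, RARS1 at 100.2 ± 28.7 and NARS1 at 98.2 ± 32.3. Neighbours in this order did not differ beyond their spread. FARSB encodes the beta subunit of phenylalanyl-tRNA synthetase, while KARS1, TARS1, RARS1 and NARS1 charge lysine, threonine, arginine and asparagine.

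VARS1, the cytosolic valine enzyme, held a different place in the bESCs. It was the lowest cytosolic gene in all 5 blastocyst groups, between 2.0 and 5.42 FPKM on average, and ranked 28 of 35 in DMSO. In the bESCs it ranked 3 of 35, at 126 ± 1.05 FPKM in bESC_tifx and 129 ± 3.27 in bESC_LY (SD, n = 2). Blastocyst and bESC RNA were extracted with different kits and the tables were normalized separately, so this difference was not tested. The deposited gene length of VARS1 was 5178 bases in the blastocyst tables and 4627 in the bESC table. The deposited length of 7 mitochondrial genes differed by more than 1.5-fold between the tables, by the most for FARS2 (59546 and 6217 bases), so their FPKM cannot be compared across tables.

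Summed over the 19 cytosolic genes, the DMSO libraries held 936, 654 and 1120 FPKM and the LY10 libraries 1821, 2029 and 1894 FPKM. The sums in LY_DMSO were 1810 and 1574, in cell2_LY 877 and 966, and in cell16_LY 1178 and 1450. Thus the LY10 blastocysts lay above their vehicle, both other LY groups lay below theirs, and the vehicle group of the second table lay near the LY10 level of the first. The tables were normalized separately and this last difference was not tested.

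The mitochondrial sums moved over a narrower range. They were 82.7, 81.9 and 106 FPKM in DMSO and 134, 131 and 125 in LY10. In the second table they were 148 and 96.5 in LY_DMSO, 114 and 116 in cell2_LY, and 106 and 130 in cell16_LY, so both LY groups lay inside the range of LY_DMSO. The ratio of the cytosolic to the mitochondrial sum was between 7.99 and 11.3 in DMSO, between 13.6 and 15.5 in LY10, between 12.3 and 16.3 in LY_DMSO, 7.70 and 8.34 in cell2_LY, and 11.1 and 11.2 in cell16_LY. In the bESCs it was between 4.37 and 5.95.

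**Figure D1:**
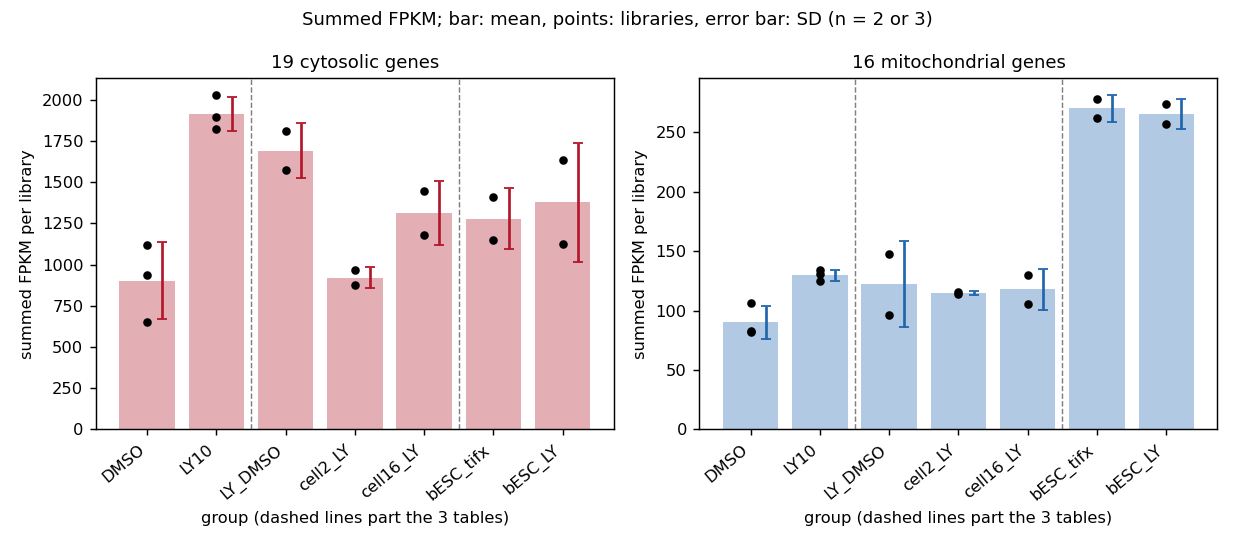
Summed FPKM per library (y axes, linear from 0) of the 19 cytosolic genes (left) and the 16 mitochondrial genes (right) in the 7 groups; bars are means, points are libraries and error bars are the SD (n = 2 or 3). The 3 LY10 libraries (1821 to 2029 FPKM) lie above the 3 DMSO libraries (654 to 1120) on the left, and cell2_LY (877 and 966) lies below LY_DMSO (1574 and 1810).

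LY10 blastocysts had more RNA of the cytosolic synthetases than DMSO blastocysts. Of 19 cytosolic genes, 13 were higher past the study's threshold, an unadjusted p under 0.05 and a log2 fold change beyond 1 in size, where the background was 6.2% higher and 8.51% lower of 14249 tested genes, and 0 were lower. All 19 had a log2 fold change above 0, as 47.4% of all tested genes did, with a median of 1.34 and a range from 0.45 to 2.17, beside a median of -0.05 over all tested genes. The mitochondrial set gave 4 of 16 higher and 0 lower, with a median of 0.52. With p-values adjusted by Benjamini-Hochberg across every tested gene, 0 of 35 members passed 0.05 by limma (background 0.014%), where 23 had an unadjusted p under 0.05 (background 22.9%), and the smallest adjusted p was 0.0725.

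CARS1 charges cysteine and lies on the plus strand of chromosome 29 (ARS-UCD2.0, chr29:48561965-48614661). Its level was 9.07, 4.13 and 6.98 FPKM in DMSO and 35.1, 30.0 and 22.7 FPKM in LY10. The groups did not overlap, and the log2 fold change of 2.17 (SE 0.34) had a limma adjusted p of 0.0725. CARS2, its mitochondrial counterpart (chr12:85239190-85268251), was at 0.441, 0.276 and 0.470 FPKM in DMSO and at 1.81, 1.72 and 1.24 FPKM in LY10. Its log2 fold change was 1.99 (SE 0.40, limma adjusted p = 0.0783), so both cysteine enzymes were higher by about the same amount.

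SARS1, the cytosolic serine enzyme (chr3:34169921-34189786), had 70.5, 47.7 and 73.6 FPKM in DMSO and 178, 198 and 158 FPKM in LY10. The lowest LY10 library was well above the highest DMSO library, and the log2 fold change was 1.49 (SE 0.24, limma adjusted p = 0.0757). SARS2, the mitochondrial serine enzyme (chr18:48630040-48639077), had 2.26, 3.20 and 6.27 FPKM in DMSO and 13.1, 8.75 and 9.15 FPKM in LY10. It was higher by 1.5 (SE 0.43, limma adjusted p = 0.101) on the log2 scale, which made serine the amino acid with the least difference between its 2 enzymes.

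YARS1, which charges tyrosine (chr2:120849176-120881197), was at 33.6, 12.9 and 26.2 FPKM in DMSO and at 70.1, 89.8 and 69.4 FPKM in LY10. EPRS1, a fused enzyme for glutamate and proline and a member of the multi-synthetase complex (chr16:23472911-23537558), was at 35.3, 25.8 and 49.4 FPKM in DMSO and at 76.2, 96.8 and 98.5 FPKM in LY10. Neither gene had overlapping groups, with log2 fold changes of 1.76 (SE 0.35) for YARS1 and 1.34 (SE 0.27) for EPRS1 and a limma adjusted p of 0.0783 for both. The other cytosolic genes past the threshold were WARS1 at 1.98, MARS1 at 1.81, IARS1 at 1.57, FARSA at 1.48, AARS1 at 1.38, TARS1 at 1.38, NARS1 and VARS1 at 1.34 and GARS1 at 1.01.

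The 6 cytosolic genes below the threshold were LARS1 with a log2 fold change of 0.93, QARS1 with 0.84, KARS1 with 0.83, HARS1 with 0.67, RARS1 with 0.52 and FARSB with 0.45. FARSA and FARSB encode the paired alpha and beta subunits of 1 enzyme, and they stood far apart. FARSA was at 9.29, 5.42 and 11.3 FPKM in DMSO and 27.7, 23.1 and 19.6 in LY10, while FARSB was at 84.2, 105 and 167 in DMSO and 137, 148 and 184 in LY10, with overlapping groups. Groups did not overlap for 15 of the 19 cytosolic genes, all higher in LY10, where 13.8% of all tested genes did so in that direction.

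GARS1 and KARS1 each supply both compartments from 1 gene. GARS1 had 98.1, 46.2 and 53.3 FPKM in DMSO and 118, 154 and 108 FPKM in LY10. Its log2 fold change of 1.01 (SE 0.31, limma adjusted p = 0.114) fell below 1 without DMSO replicate 2 (0.79), DMSO replicate 3 (0.90) or LY10 replicate 2 (0.86). KARS1 had 101, 106 and 123 FPKM in DMSO and 184, 207 and 194 FPKM in LY10, a log2 fold change of 0.83 (SE 0.19, limma adjusted p = 0.0802) with a small spread in both groups.

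Among mitochondrial genes, VARS2 (log2 fold change 1.10) and FARS2 (1.04) also passed the threshold. FARS2 (chr23:49111514-49417457) was at 0.212, 0.260 and 0.205 FPKM in DMSO and at 0.436, 0.554 and 0.412 FPKM in LY10. It had a limma adjusted p of 0.0919 and fell just below a log2 fold change of 1 without DMSO replicate 1, DMSO replicate 3 (0.98) or LY10 replicate 2 (0.91). The count of mitochondrial genes past the threshold was 2 without DMSO replicate 1 and 2 without LY10 replicate 2. In these fits 859 of 13938 and 729 of 14136 tested genes were higher past it, and 834 and 1014 lower.

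HARS2, the mitochondrial histidine enzyme, starts 127 bases from its cytosolic counterpart HARS1 on the opposite strand of chromosome 7 (chr7:51817107-51824123 and chr7:51803876-51816979). HARS2 was at 8.41, 6.42 and 12.6 FPKM in DMSO and at 17.5, 19.4 and 13.9 FPKM in LY10, a log2 fold change of 0.93 (SE 0.31, limma adjusted p = 0.135). HARS1 had a log2 fold change of 0.67. Histidine and serine were the 2 of 16 amino acid pairs in which the mitochondrial gene had the higher fold change. The phenylalanine pair used FARSA, while the other subunit gene, FARSB, had a log2 fold change of 0.45, below the 1.04 of FARS2. EPRS1 stood in both the glutamate and the proline pair.

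LARS2, the mitochondrial leucine enzyme (chr22:53739966-53886717), had the lowest log2 fold change of all members. It was at 2.03, 1.48 and 1.09 FPKM in DMSO and at 0.912, 0.824 and 0.699 FPKM in LY10, so its groups did not overlap, with LY10 below, as for 14.4% of all tested genes. The log2 fold change was -0.86 (SE 0.42, limma adjusted p = 0.26), which did not pass the threshold. EARS2, NARS2 and YARS2 had values of -0.02, -0.12 and 0.0005, and the other mitochondrial genes below the threshold lay between 0.25 and 0.93.

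**Figure D2:**
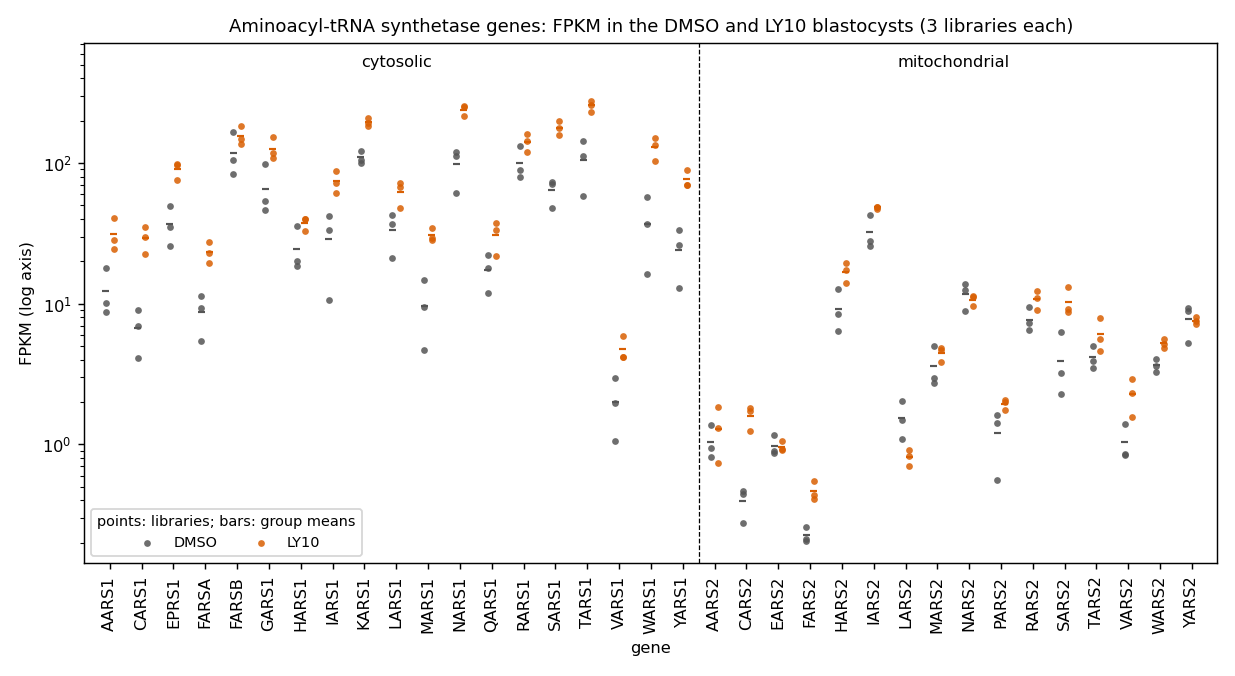
FPKM (y axis, log scale) of each synthetase gene (x axis, cytosolic left and mitochondrial right of the dashed line) in the 3 DMSO (grey) and 3 LY10 (orange) libraries; short bars are group means. Groups did not overlap, with LY10 above, for 15 of 19 cytosolic genes and 8 of 16 mitochondrial genes, as for 13.8% of all tested genes, while LARS2 lies lower in LY10.

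The cytosolic genes were also set apart by whether they are known ATF4 targets, a split chosen after the values were seen and given as a description. The 12 known targets (AARS1, CARS1, EPRS1, GARS1, IARS1, LARS1, MARS1, NARS1, SARS1, TARS1, WARS1 and YARS1) had a median log2 fold change of 1.44, and 11 of them passed the threshold. The other 7 had a median of 0.83, and 2 of them, FARSA and VARS1, passed (background 6.2% higher for both counts). By membership of the multi-synthetase complex the medians in LY10 were 0.93 for its 7 genes and 1.38 for the 12 cytosolic genes outside it. In cell2_LY the known targets had a median of -0.95 and the other 7 of -0.72. There 4 of 12 and 2 of 7 fell past the threshold (background 8.34%). These 2 medians were -0.53 and -0.15 in cell16_LY against LY_DMSO, and 0.29 and 0.66 in cell16_LY against cell2_LY.

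Other genes of the amino acid response were read from a list of 17, of which 15 were tested. In LY10, 8 were higher past the threshold (background 6.2%) and 1 was lower (background 8.51%). PSAT1, an enzyme of serine synthesis, had a log2 fold change of 3.30, CHAC1, which degrades glutathione, 2.63, PHGDH, the first enzyme of serine synthesis, 2.35, and ATF4 itself 1.55. ATF4 was at 184, 68.2 and 126 FPKM in DMSO and at 365, 347 and 314 FPKM in LY10, without overlap. DDIT3, the gene of the stress factor CHOP, was the 1 that fell, by 1.54 on the log2 scale. DDIT3 overlaps MARS1 in the RefSeq annotation of ARS-UCD2.0, and 10 of the 35 synthetase genes overlap another protein-coding gene there, 5 in each set, so reads of such pairs may not be separable where counting did not use strand.

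Proteins that work beside the synthetases were read from a list of 22, of which 21 were tested. In LY10, 2 were higher past the threshold (background 6.2%). They were EEF1G, a subunit of the factor that recharges the carrier of charged transfer RNA, at 1.21, and GATB, part of the enzyme that makes mitochondrial glutaminyl-tRNA, at 1.47. AIMP1, the complex scaffold, was at 317, 462 and 283 FPKM in DMSO and at 199, 175 and 218 FPKM in LY10. Its log2 fold change of -0.82 did not pass the threshold although the groups did not overlap, while all 7 synthetases of the complex had values above 0.

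Cell type markers also differed in this comparison. Summed over 4 epiblast markers (POU5F1, NANOG, SOX2 and LIN28A), the level was between 171 and 271 FPKM in DMSO and between 357 and 721 FPKM in LY10. Of the 4, 3 had values above 0 and LIN28A a value of -1.16, and only POU5F1 passed the threshold, higher by 1.23 on the log2 scale. The sum over 6 trophectoderm markers, from 2913 to 6979 FPKM in DMSO and from 4163 to 9875 FPKM in LY10, overlapped between the groups, and 0 of the 6 passed the threshold by limma or had an unadjusted p under 0.05. The 4 hypoblast markers summed to between 69.2 and 110 FPKM in DMSO and between 68.0 and 93.4 FPKM in LY10. Of 3 tested, PDGFRA rose by 3.74 on the log2 scale, while GATA6 at -0.73 and GATA4 at -1.03 did not pass but lay lower without overlap. The 4 fibroblast markers summed to between 7.77 and 18.1 FPKM in DMSO and between 3.81 and 4.49 FPKM in LY10, all 3 tested had values below 0, and COL1A2 fell by 1.22. The part of these cell types in the synthetase values was not tested.

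Leaving out DMSO replicate 3 moved the adjusted calls more than any other library. Without it, 13 cytosolic and 4 mitochondrial genes had a limma adjusted p under 0.05, where 13.7% of 14298 tested genes did, and the cytosolic median was 1.58. In the other 5 such fits no member passed adjustment, and the count of cytosolic genes past the threshold stayed between 10 and 14 over all 6. Over these 6 fits, from 666 of 13762 to 1350 of 14298 tested genes were higher past the threshold.

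In cell2_LY blastocysts, treated from the 2-cell stage in the second experiment, cytosolic synthetases lay below the vehicle. Of 19 cytosolic genes, 6 fell past the threshold (background 8.34% lower of 14529 tested genes) and 0 rose. The median log2 fold change was -0.81, with a range from -1.89 to 0.63. Of the 19, 16 lay below 0 and 3 above, where 50.1% of all tested genes lay above and their median was 0.00287. Mitochondrial genes had a median of 0.14, with 2 of 16 higher (background 8.71%) and 1 lower. By limma 0 of 35 members had an adjusted p under 0.05 (background 0.0138%), where 13 had an unadjusted p under 0.05 (background 24.6%), and the smallest adjusted p was 0.0711. Both this group and cell16_LY were compared with the same 2 LY_DMSO libraries, and 1 fit over the 6 libraries gave the spread.

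LARS1, the cytosolic leucine enzyme and a sensor of leucine upstream of mTORC1 (chr7:57327430-57397990), was at 66.5 and 55.8 FPKM in LY_DMSO and at 20.6 and 23.5 FPKM in cell2_LY. It fell by 1.47 on the log2 scale (SE 0.25, limma adjusted p = 0.0711). FARSB (chr2:110746220-110820162) was at 159 and 158 FPKM in LY_DMSO and at 32.3 and 56.9 FPKM in cell2_LY, and fell by 1.89 (SE 0.33, limma adjusted p = 0.0711). The 2 vehicle libraries of FARSB nearly coincided, while the cell2_LY libraries differed from each other but stayed far below.

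RARS1, the arginine enzyme of the complex (chr7:80503748-80532990), was at 150 and 124 FPKM in LY_DMSO and at 33.6 and 61.3 FPKM in cell2_LY, and fell by 1.59 (SE 0.32, limma adjusted p = 0.0716). IARS1 fell by 1.18, NARS1 by 1.15 and EPRS1 by 1.08 on the log2 scale. Of these 6 genes, 4 belong to the multi-synthetase complex, whose 7 listed members had a median of -1.08, against -0.66 for the 12 cytosolic genes outside it.

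RARS2, the mitochondrial arginine enzyme (chr9:62337299-62431365), went the same way as RARS1. It was at 9.66 and 8.45 FPKM in LY_DMSO and at 3.40 and 4.94 FPKM in cell2_LY, and fell by 1.14 (SE 0.29, limma adjusted p = 0.0855). Without cell2_LY replicate 1 its value was -0.87.

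AARS2 and CARS2 went the other way. AARS2, for alanine (chr23:17802024-17813021), was at 1.77 and 1.19 FPKM in LY_DMSO and at 4.06 and 3.17 FPKM in cell2_LY. It rose by 1.29 (SE 0.44, limma adjusted p = 0.133), but it did not pass the threshold without cell2_LY replicate 1 or without LY_DMSO replicate 2. CARS2 was at 0.458 and 0.383 FPKM in LY_DMSO and at 1.69 and 1.02 FPKM in cell2_LY, and rose by 1.63 (SE 0.46, limma adjusted p = 0.0992).

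The 3 cytosolic genes with values above 0 were VARS1 at 0.63, CARS1 at 0.27 and QARS1 at 0.23, and none of them passed the threshold. The remaining 10 cytosolic genes lay between -0.98 (YARS1) and -0.14 (GARS1). Groups did not overlap for 14 of the 19, all lower in cell2_LY, where 26.9% of all tested genes did so in that direction. Over the 16 amino acid pairs the cytosolic gene had the higher fold change only for valine.

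The partner proteins in cell2_LY mostly lay below the vehicle too. Of 21 tested, 19 had a value below 0 and 6 fell past the threshold (background 8.34%). These were AIMP2 by 1.16, EEF1E1 by 1.11, DTD2 by 1.61, TRNT1 by 1.11, MTFMT by 1.42 and TSFM by 1.13 on the log2 scale. AIMP2 and EEF1E1 are complex scaffolds, TRNT1 adds the 3′ end of transfer RNA, DTD2 proofreads it, MTFMT formylates the mitochondrial initiator and TSFM serves mitochondrial elongation. In the amino acid response 3 of 16 tested genes fell past the threshold (background 8.34%), CHAC1, SLC3A2 and ASNS, and 0 rose (background 8.71%). Of the 16, 9 lay below 0, among them ATF4 at -0.24, and 7 lay above 0, up to 2.28.

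Trophectoderm markers lay higher in this group: all 6 had values above 0 (0.30 to 2.78) and CDX2, a trophectoderm transcription factor, rose by 2.78 from a level of 0.410 and 0.591 FPKM to 3.87 and 3.49 FPKM. Summed over the 6 markers, the level was between 4384 and 5340 FPKM in LY_DMSO and between 5545 and 8049 FPKM in cell2_LY, with none at 0. Of 3 hypoblast markers tested, PDGFRA fell by 2.01, while the other 2 had values of 0.59 and 0.84 that did not pass. No marker tested of the epiblast or fibroblast lists passed. Their part in the synthetase values was not tested. The authors' library size for cell2_LY replicate 1 was 1.23 times its reads on genes. With reads on genes as the library size the all-gene median rose to 0.24 and the cytosolic median was -0.57. Past the threshold, 3 cytosolic genes then fell, as did 674 of 14561 tested genes.

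**Figure D3:**
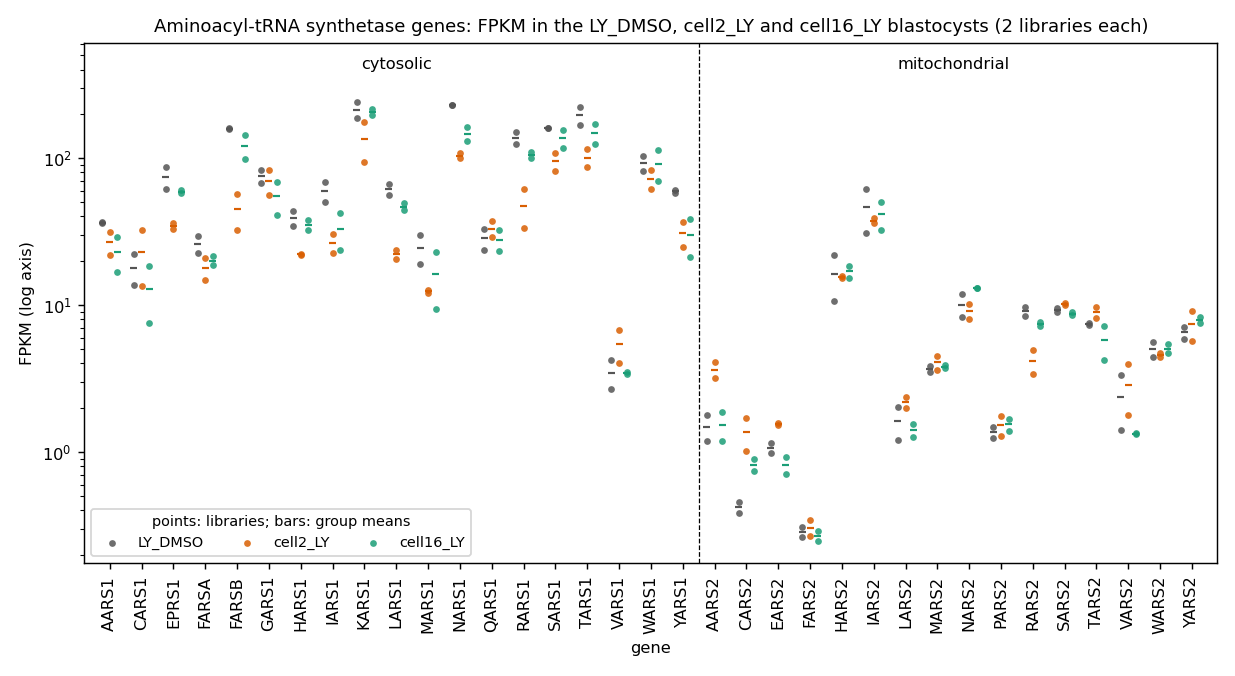
FPKM (y axis, log scale) of each synthetase gene in the 2 LY_DMSO (grey), 2 cell2_LY (orange) and 2 cell16_LY (green) libraries; short bars are group means and the dashed line parts cytosolic from mitochondrial genes. In cell2_LY, FARSB, RARS1 and LARS1 lie far below LY_DMSO, and AARS2 and CARS2 lie above it.

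When LY was given from the 16-cell stage, the cytosolic values lay below the vehicle by less. Of 19 genes, 18 had a log2 fold change below 0 and 1 above, where 49.5% of all tested genes were above. The median was -0.38, and 1 passed the threshold, YARS1 (background 1.97% lower). The mitochondrial median was -0.03 and 0 of 16 genes passed in either direction (background 5.22%). Adjusted p-values by limma were under 0.05 for 0 of 35 members (background 0%), where 3 had an unadjusted p under 0.05 (background 7.62%), and the smallest adjusted p was 0.577. Beside it the all-gene median was -0.00585, and 22% of all tested genes had groups that did not overlap with cell16_LY lower, as 10 of the 19 cytosolic genes had.

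YARS1 was at 58.2 and 60.7 FPKM in LY_DMSO and at 21.3 and 38.2 FPKM in cell16_LY. It fell by 1.06 (SE 0.34, limma adjusted p = 0.577), and it did not pass the threshold without cell16_LY replicate 1 (-0.64), without LY_DMSO replicate 2 (unadjusted p just above 0.05) or after quantile normalization (-0.95). Leaving out 1 library at a time, the cytosolic median lay between -0.51 and -0.18.

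IARS1 was at 68.8 and 50.4 FPKM in LY_DMSO and at 23.5 and 42.1 FPKM in cell16_LY, and NARS1 at 229 and 231 FPKM in LY_DMSO and at 130 and 162 FPKM in cell16_LY. Neither group pair overlapped, with log2 fold changes of -0.90 for IARS1 and -0.67 for NARS1, which were below 1 in size. CARS2 had the highest fold change of all members, from 0.458 and 0.383 FPKM in LY_DMSO to 0.894 and 0.740 FPKM in cell16_LY, a log2 fold change of 0.94 (SE 0.46, limma adjusted p = 0.692) that did not pass.

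NARS2 was at 11.8 and 8.24 FPKM in LY_DMSO and at 13.0 and 13.1 FPKM in cell16_LY, and VARS2 at 3.33 and 1.41 FPKM in LY_DMSO and at 1.32 and 1.34 FPKM in cell16_LY. Their log2 fold changes of 0.40 and -0.70 did not pass. In the partner list 0 of 21 genes passed the threshold (background 5.22%), and 2 had an unadjusted p under 0.05 by limma (background 7.62%). In the amino acid response 5 of 16 fell past the threshold (background 1.97%). These were CHAC1 by 3.35, TRIB3 by 1.47, ATF4 by 1.13, SLC3A2 by 1.12 and ASNS by 1.02 on the log2 scale.

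Set directly against each other, cell16_LY had higher levels than cell2_LY for 3 cytosolic genes past the threshold (background 5.58%) and 0 lower, with a cytosolic median of 0.32. Since both were measured against the same vehicle libraries, this contrast is also the difference between the effects of the 2 start stages. FARSB was at 144 and 97.8 FPKM in cell16_LY against 32.3 and 56.9 in cell2_LY, RARS1 at 99.9 and 110 against 33.6 and 61.3, and LARS1 at 44.2 and 49.3 against 20.6 and 23.5. The log2 fold changes were 1.47 (SE 0.33) for FARSB, 1.21 (SE 0.32) for RARS1 and 1.08 (SE 0.25) for LARS1, with limma adjusted p of 0.191, 0.193 and 0.191.

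In the mitochondrial set the median was -0.13 and 1 of 16 genes was lower past the threshold (background 5.77%). That gene, AARS2, was at 1.18 and 1.87 FPKM in cell16_LY and at 4.06 and 3.17 FPKM in cell2_LY, a log2 fold change of -1.26 (SE 0.44, limma adjusted p = 0.215). EARS2, for glutamate, was at 0.711 and 0.930 FPKM in cell16_LY and at 1.58 and 1.52 FPKM in cell2_LY, with a value of -0.92. RARS2 was at 7.71 and 7.17 FPKM in cell16_LY and at 3.40 and 4.94 FPKM in cell2_LY, with a value of 0.86, and neither passed.

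By limma 0 of 35 members had an adjusted p under 0.05 in this contrast (background 0%), where 8 had an unadjusted p under 0.05 (background 17.9%). With reads on genes as the library size the all-gene median moved to -0.18, the cytosolic median was 0.10, and 1 cytosolic gene passed. Of 14561 tested genes, 421 were then higher and 1261 lower past the threshold. Without cell2_LY replicate 1 or replicate 2 the cytosolic median stayed between 0.076 and 0.69. The cytosolic median was 0.076 without cell16_LY replicate 2 and 0.69 without cell16_LY replicate 1. AARS2 did not pass without cell2_LY replicate 1 or without cell16_LY replicate 1.

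The 2 comparisons that start LY at the 2-cell stage, LY10 in the first table and cell2_LY in the second, gave cytosolic medians of opposite sign. The LY concentration of cell2_LY is not in its labels and the tables were normalized separately, so the values stand side by side without a test of the difference. MARS1 had log2 fold changes of 1.81 and -0.94, NARS1 of 1.34 and -1.15, EPRS1 of 1.34 and -1.08, and LARS1 of 0.93 and -1.47. CARS1 (2.17 and 0.27), VARS1 (1.34 and 0.63) and QARS1 (0.84 and 0.23) were above 0 in both. Among mitochondrial genes, CARS2 had log2 fold changes of 1.99 in LY10, 1.63 in cell2_LY and 0.94 in cell16_LY. In LY10 its libraries lay above the DMSO libraries without overlap, as for 13.8% of all tested genes in that direction. The cell2_LY and cell16_LY values share the LY_DMSO libraries. CARS2 had only 45, 22 and 34 reads in the DMSO libraries, and it overlaps the protein-coding gene ING1.

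**Figure D4:**
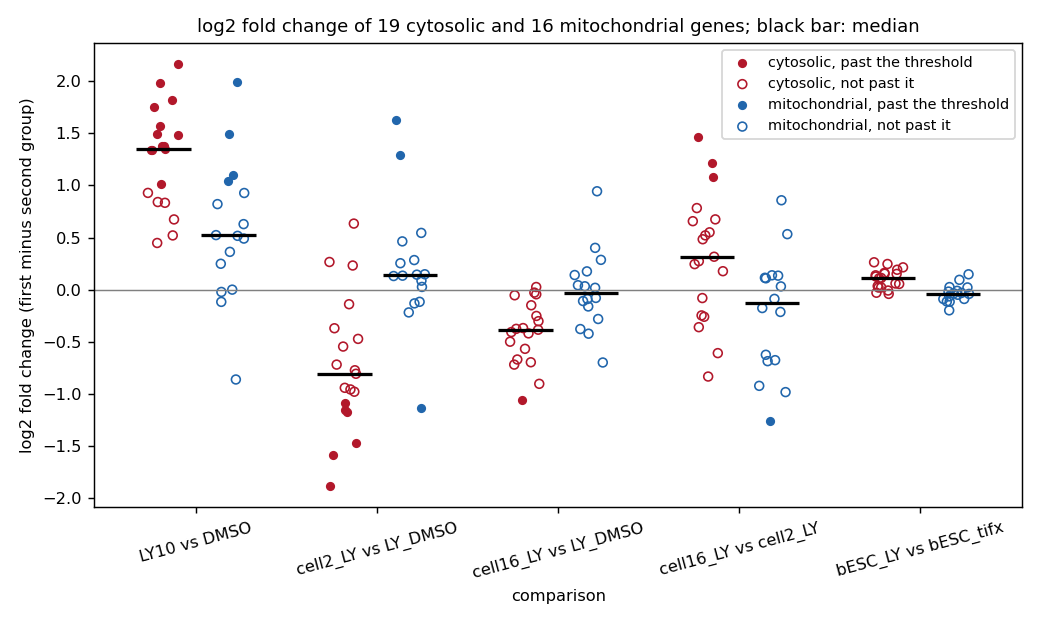
log2 fold change (y axis, first minus second group) of the 19 cytosolic (red) and 16 mitochondrial (blue) genes in the 5 comparisons (x axis); filled points passed an unadjusted p under 0.05 and a log2 fold change beyond 1 in size, open points did not, and black bars are medians. The cytosolic medians are 1.34, -0.81, -0.38, 0.32 and 0.11 from left to right, and the mitochondrial medians 0.52, 0.14, -0.03, -0.13 and -0.04.

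In the bESCs no synthetase gene passed the threshold with LY. The background was 0.0749% of 16012 tested genes in either direction. By limma 0 of 35 had an unadjusted p under 0.05 (background 0.0999%) and 0 passed adjustment (background 0%). With the replicate number as a block in the fit, 9 of 19 cytosolic genes had an unadjusted p under 0.05 by limma (background 7.97%). The labels do not say that the numbers pair the libraries. Log2 fold changes lay between -0.04 and 0.26 for the cytosolic genes, with a median of 0.11, and between -0.20 and 0.15 for the mitochondrial genes, with a median of -0.04. The all-gene median was -0.00725.

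AARS1, the cytosolic alanine enzyme, had the highest value. It was at 67.3 and 47.9 FPKM in bESC_tifx and at 96.7 and 48.0 FPKM in bESC_LY, a log2 fold change of 0.26 (SE 0.39). Only 1 bESC_LY library, replicate 2, lay above both bESC_tifx libraries. NARS1 was at 130 and 128 FPKM in bESC_tifx and at 161 and 128 FPKM in bESC_LY, and FARSA at 73.9 and 61.8 FPKM in bESC_tifx and at 79.7 and 68.3 FPKM in bESC_LY. Their log2 fold changes were 0.15 (SE 0.16) and 0.13 (SE 0.17).

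WARS2, the mitochondrial tryptophan enzyme, had the lowest value, at 3.45 and 1.99 FPKM in bESC_tifx and at 3.52 and 1.48 FPKM in bESC_LY, a log2 fold change of -0.20 (SE 0.54). HARS2 was at 16.9 and 17.7 FPKM in bESC_tifx and at 18.4 and 18.6 FPKM in bESC_LY, a log2 fold change of 0.09 whose groups did not overlap, as 6.83% of all tested genes did with bESC_LY higher. LARS2 (12.5 and 10.6 FPKM in bESC_tifx, 10.1 and 11.3 in bESC_LY) and MARS2 (5.30 and 4.79 FPKM, then 4.79 and 4.51) both had values of -0.11.

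The labels number the bESC libraries 2 and 3 in both groups and do not say that a number marks a shared culture. For the cytosolic genes, the libraries numbered 2 and 3 differed more in the median than bESC_LY and bESC_tifx did. In bESC_tifx, all 19 cytosolic genes were higher in library 2 than in library 3, by a median of 0.37 on the log2 scale, as were all 17 amino acid response genes, by a median of 0.89. Between the libraries numbered 2, 18 of 19 cytosolic genes were higher with LY, with a median difference of 0.25, where 48.4% of all tested genes were. Between the libraries numbered 3, 5 of 19 were higher, with a median of -0.04.

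The known ATF4 targets differed most within number 2. Their median difference with LY was 0.32 there and -0.04 within number 3, and that of the other 7 cytosolic genes was 0.07 and -0.04. CARS1 differed by 0.53 and AARS1 by 0.52 within number 2, and by -0.04 and 0.003 within number 3. All 17 amino acid response genes were higher with LY within number 2, by a median of 0.93, led by CHAC1 at 2.40, and 7 of 17 within number 3. Each of these differences rests on 1 library a side and has no replicate check.

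**Figure D5:**
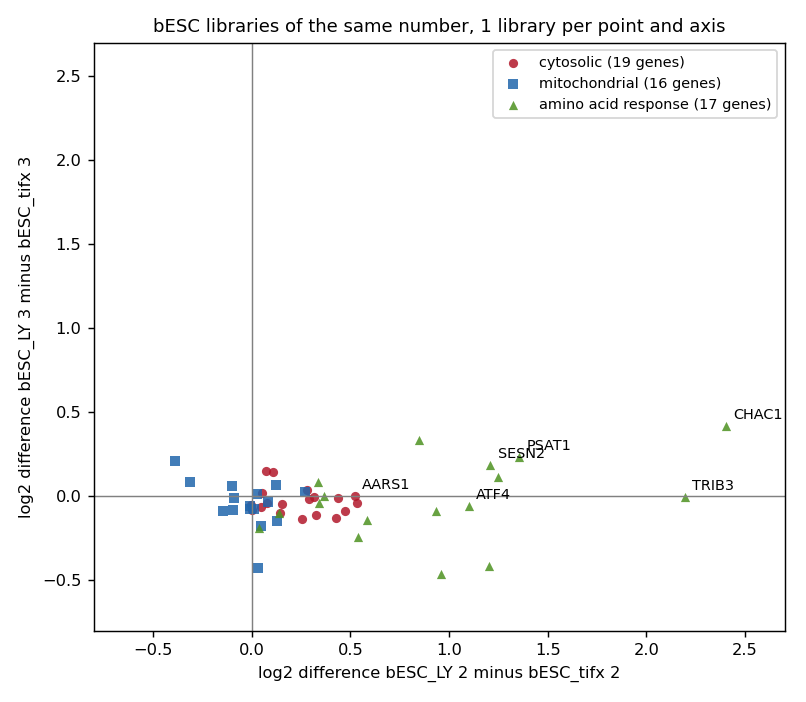
log2 difference with LY within the bESC libraries numbered 2 (x axis) and numbered 3 (y axis) for cytosolic synthetases (red circles), mitochondrial synthetases (blue squares) and amino acid response genes (green triangles), with 1 library a side. Cytosolic genes lie to the right of 0 on the x axis for 18 of 19 and above 0 on the y axis for 5 of 19, and CHAC1 lies farthest right at 2.40.

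The 35 genes lie on 17 chromosomes, with 5 on chromosome 7 (FARSA, HARS1, HARS2, LARS1 and RARS1). EPRS1 and IARS2 lie 49376 bases apart on chromosome 16 on opposite strands, and VARS1 and VARS2 lie 600594 bases apart on chromosome 23. In LY10 the log2 fold changes of these closest pairs were 0.67 for HARS1 and 0.93 for HARS2, 1.34 for EPRS1 and 0.63 for IARS2, and 1.34 for VARS1 and 1.10 for VARS2. By structural class of the enzyme, the medians in LY10 were 0.88 over 18 class I and 0.97 over 16 class II genes.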

How the data were processed

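RNA was sequenced from 12 blastocysts, prepared with a SMART-Seq kit, and 4 bESC libraries. The submitters' processing notes name HISAT2 2.0.5, StringTie 1.3.3b, featureCounts 1.5.0-p3 and DESeq2 1.20.0, and the study's methods name STAR as well. The authors deposited FPKM per gene and library, under the name of normalized counts, beside their own fold changes and p-values, which were not used. FPKM multiplied by gene length gave whole reads, within 0.02 reads, for 100% of values. Reads were divided by the library size the FPKM imply, which differed from median-ratio size factors by at most 1.26%, and scaled to the table's geometric mean.

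The model was fitted in R 4.3.3 by limma 3.58.1 with a trended prior variance. It used the log2 of each normalized count plus 1, for genes whose mean reached 10, and the 3 groups of the second table shared 1 fit. A fold change on this scale understates that of low genes. Calls used the study's threshold, an unadjusted p under 0.05 and a log2 fold change beyond 1 in size, and Benjamini-Hochberg adjustment over all tested genes. The fit was tested on simulated data. Members, lists and tests were chosen with earlier results of these data known. Values are given for the members with the 3 smallest p in each set (4 in LY10), the highest and lowest fold change, and GARS1 and KARS1. Positions are those of ARS-UCD2.0, given where the table has the same position (34 of 35 genes). With 2 or 3 libraries a group, precision is limited by their number, and read counts carry amplification error beside counting error. Alternatives were a pseudocount of 5, no filter, a mean of at least 50, reads on genes as library size, median-ratio factors, quantile normalization, sample weights, voom weights on the recovered reads, the replicate number as a block, a fit of only the 2 groups at hand and omission of each library. Python 3.11.15, pandas 2.3.3, numpy 2.4.6 and matplotlib 3.10.9 made tables and figures.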

Additional observations from a re-analysis of the deposited data

Results flagged for a closer look

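A test of the difference between the effects of LY given from the 16-cell and from the 2-cell stage called 4 synthetase genes at the study's threshold. Of the 35 genes, 3 were higher (background 5.58%) and 1 was lower (background 5.77%) with the later start. FARSB (1.47), RARS1 (1.21) and LARS1 (1.08) had the higher log2 fold change with the later start and AARS2 (-1.26) with the earlier one, and none of the 4 passed Benjamini-Hochberg adjustment in limma, with adjusted p between 0.191 and 0.215.

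In 11 cytosolic genes (AARS1, EPRS1, FARSA, IARS1, KARS1, LARS1, MARS1, NARS1, SARS1, TARS1 and YARS1) and 0 mitochondrial genes, every LY10 library lay above every DMSO library and every cell2_LY library lay below every LY_DMSO library, as for 6.39% of the 13019 genes tested in both tables. This difference between the 2 experiments was not tested, since their tables were normalized separately.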

How the results depend on the processing

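With reads on genes as library size, cell2_LY against LY_DMSO had 3 cytosolic genes past the threshold. The cytosolic median was -0.57 and the mitochondrial median 0.37. Of 14561 tested genes, 1842 were higher and 674 lower past the threshold there. For cell16_LY against cell2_LY the cytosolic count was 1, the mitochondrial count 2 and the mitochondrial median -0.34. In that contrast 421 of the 14561 genes were higher and 1261 lower. After quantile normalization the cytosolic count was 3 and the median -0.57 in cell2_LY against LY_DMSO. The count was 0 in cell16_LY against LY_DMSO and 1 in cell16_LY against cell2_LY. In that order 1159, 440 and 775 of 14529 tested genes were higher past the threshold, and 1080, 306 and 795 lower. The cause was not tested.

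Leaving out 1 library at a time in LY10 against DMSO, the cytosolic count ranged from 10 to 14 and the mitochondrial count from 2 to 5. Past the threshold there, from 666 of 13762 to 1350 of 14298 tested genes were higher, and from 661 to 2106 lower. Counts past the threshold are given only for this comparison, where more than 1 library stayed in each group. The cytosolic medians ranged from 1.01 to 1.58 in LY10 against DMSO. They ranged from -0.90 to -0.75 and -0.51 to -0.18 in cell2_LY and cell16_LY each against LY_DMSO. Between these last 2 LY groups they ranged from 0.076 to 0.69, and in bESCs from -0.19 to 0.32. The mitochondrial medians ranged in that order from 0.47 to 0.62, 0.02 to 0.25, -0.18 to 0.11, -0.23 to -0.081 and -0.069 to 0.025. A group left with 1 library was assumed to vary like the others. In the bESCs the log2 fold changes that changed sign ranged from -0.24 to 0.77 for AARS1 (lowest without bESC_LY replicate 2), -0.014 to 0.32 for NARS1, -0.0023 to 0.26 for FARSA, -0.23 to 0.0061 for LARS2 and -0.82 to 0.42 for WARS2, which was also 0.20 without bESC_tifx replicate 2. Of the values recomputed for the genes named, 483 kept their direction and side of the threshold, 23 lost and 8 gained it, and 6 changed sign.

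The labels do not say what a replicate number marks. Deviations of same-numbered samples correlated at -0.12, 0.17 and -0.10 in LY10 and DMSO, and at 0.79 in the bESCs, where 2 pairs do not settle whether a number marks a shared culture. A replicate block cannot move fold changes here, and the cytosolic counts past the threshold with it were 13, 6, 1, 3 and 0. In that order 885, 1240, 492, 830 and 69 of all tested genes were higher past it, and 1175, 1249, 298, 802 and 77 lower. In the bESCs it gave 9 of 19 cytosolic genes an unadjusted p under 0.05 by limma (7.97% of all tested genes). AARS1 (limma adjusted p = 0.00128) and CARS1 (0.0251) passed adjustment (0.724% of all). Within number 2 AARS1 and CARS1 differed by 0.52 and 0.53 with LY, and within number 3 by 0.003 and -0.04. These p-values rest on 2 pairs and on a spread that limma shares across genes, so they do not show that the difference repeats. With the numbers of cell16_LY crossed, an alternative chosen after seeing the data, 558 genes passed the threshold as higher and 370 as lower against LY_DMSO.

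In LY10, 1 cytosolic gene passed adjustment with no filter (0.107% of all genes), 11 cytosolic and 4 mitochondrial with sample weights (10.9%). In cell2_LY, 4 cytosolic and 1 mitochondrial passed without cell2_LY replicate 2 (6.05%). The smallest adjusted p in LY10 was between 0.0127 (without DMSO replicate 3) and 0.219 (without LY10 replicate 1). With 2 or 3 libraries a group, small changes were not detectable.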

Other observations

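In cell16_LY against LY_DMSO the amino acid response list had a median log2 fold change of -0.93 over 16 tested genes, beside -0.38 for the 19 cytosolic synthetases, and in cell2_LY it was -0.17 beside -0.81. ATF4 was at 371 and 287 FPKM in LY_DMSO, at 399 and 192 FPKM in cell2_LY and at 123 and 180 FPKM in cell16_LY. Of the 19 cytosolic synthetases, 6 fell past the threshold in cell2_LY (background 8.34%) and 1 in cell16_LY (background 1.97%). By sign alone, 16 of 19 lay below 0 in cell2_LY and 18 of 19 in cell16_LY. A link of these values to ATF4 was not tested. These comparisons share the LY_DMSO libraries, and the difference between the lists was not tested.

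The 5 cytosolic delivery genes, which export transfer RNA from the nucleus or take it charged to the ribosome, lay at a median of 0.81 (log2 fold change) in LY10. There 1 of 5 was higher past the threshold (background 6.2%) and 3 had an unadjusted p under 0.05 by limma (background 22.9%). Their median was -0.07 in cell2_LY, with 0 of 5 past the threshold by limma (background 8.71% higher and 8.34% lower). There 1 had an unadjusted p under 0.05 by limma (background 24.6%). The 8 genes of mitochondrial charging and delivery had a median of -0.72 in cell2_LY, where the 16 mitochondrial synthetases had a median of 0.14.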
